A study of Mus musculus with 40 samples.

Results

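The genes described here encode the proteins of the mitochondrial ribosome, measured in the gastrocnemius and the quadriceps of mice on a high fat or a low fat diet. A gene was taken as a member when its symbol consisted of Mrps or Mrpl followed by a number alone, which found 69 of 16475 probe sets. The 23 with an Mrps symbol were counted as small subunit and the 46 with an Mrpl symbol as large subunit. This split rests on the symbol alone and was not checked against the structure of the ribosome, where a protein may sit in the other subunit. Of 75 such symbols in the mouse gene table, 6 (Mrpl4, Mrpl23, Mrpl48, Mrps10, Mrps33 and Mrps36) had no probe set here. The study compared both muscles of male C57BL/6J mice, a strain written C56BL/6J in the sample labels, which at 9 weeks of age received an LFD for 3 weeks as run-in and then an HFD or the LFD for 8 weeks. There were 4 groups of 10 arrays each, from 20 mice aged 20 weeks at dissection: gastrocnemius HFD, quadriceps HFD, gastrocnemius LFD and quadriceps LFD, with an Affymetrix array of its own for every muscle sample. The labels name no genetic change in these animals, and the 2 muscles of a mouse share its number. The protocol text describes RNA from the quadriceps alone, also for gastrocnemius arrays, so the muscle was read from the sample titles.

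The mitochondrial ribosome translates the messenger RNAs of the mitochondrial genome, all of which encode core subunits of the respiratory chain and of ATP synthase. Its RNAs come from the mitochondrial genome, while all of its proteins are encoded in the nucleus, made in the cytosol and imported. The small subunit binds the messenger RNA and decodes it, and the large subunit joins the amino acids and passes the new protein to the inner membrane. Skeletal muscle is rich in mitochondria, and slow oxidative fibers hold more of them than fast glycolytic ones.

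The members lay on 17 chromosomes, 11 of them on chromosome 11. The upstream sequences of 3 members are shown because Mrps12 and Mrpl57 followed Mrps28 in the order of p-values between the muscles over both diets, Mrps11 starts next to another member, and together they carry motifs of 3 regulators of nuclear genes for mitochondrial proteins. Each runs from 250 bases before to 50 bases after the start of the gene (RefSeq, GRCm38.p6). The capitals mark the motif of nuclear respiratory factor 1 (NRF-1, GCGCA, any base, GCGC), that of ETS factors such as GABP (CCGGAAG) and that of YY1 (AAGATGGC), each searched on both strands. None of the motifs overlaps another in these windows. Mrps12 lies at chr7:28741772-28742071 on the minus strand, Mrpl57 at chr14:57825989-57826288 on the plus strand and Mrps11 at chr7:78782881-78783180 on the plus strand.
Mrps12: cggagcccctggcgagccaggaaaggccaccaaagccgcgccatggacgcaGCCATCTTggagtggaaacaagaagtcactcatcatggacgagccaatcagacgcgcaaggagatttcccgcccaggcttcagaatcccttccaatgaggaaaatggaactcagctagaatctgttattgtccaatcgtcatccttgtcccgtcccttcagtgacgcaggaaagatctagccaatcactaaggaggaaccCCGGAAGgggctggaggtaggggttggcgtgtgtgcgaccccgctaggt
Mrpl57: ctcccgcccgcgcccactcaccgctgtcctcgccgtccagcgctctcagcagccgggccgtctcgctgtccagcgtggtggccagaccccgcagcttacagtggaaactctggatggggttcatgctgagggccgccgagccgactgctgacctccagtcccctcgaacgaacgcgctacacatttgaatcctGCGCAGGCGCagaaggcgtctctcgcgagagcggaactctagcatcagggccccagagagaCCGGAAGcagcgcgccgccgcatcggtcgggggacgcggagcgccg
Mrps11: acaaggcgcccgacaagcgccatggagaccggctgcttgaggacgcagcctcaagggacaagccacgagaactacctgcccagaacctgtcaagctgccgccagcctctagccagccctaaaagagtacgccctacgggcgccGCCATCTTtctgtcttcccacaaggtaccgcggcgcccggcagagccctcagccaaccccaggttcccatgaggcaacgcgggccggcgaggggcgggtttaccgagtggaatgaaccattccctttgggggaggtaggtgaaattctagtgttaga

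Mrps12 held the ETS and the YY1 motif, Mrpl57 the NRF-1 and the ETS motif, and Mrps11 the YY1 motif. A promoter sequence was at hand for 61 of the 69 members, the others being Mrps28, Mrps34, Mrps35, Mrpl13, Mrpl15, Mrpl19, Mrpl38 and Mrpl54. The NRF-1 motif was found in 13 of the 61 (21.3%), against 13.2% of the 5201 tested genes with a promoter and 5.19% of all 27025 promoters. The ETS motif was found in 21 members (34.4%, against 22.5% of tested genes and 9.93% of all promoters). The YY1 motif was found in 11 members (18.03%, against 6.40% of tested genes and 3.19% of all promoters). The share with the core motif of estrogen related receptors (AAGGTCA) was 6.56% of the members, 3.81% of tested genes and 5.38% of all promoters, and that with the CCAAT box (CCAAT) was 39.3%, 42.3% and 41.1%. A match describes these letters alone and is not a binding site.

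Of the 61 members, 20 had another gene that starts on the other strand within 250 bases upstream (32.8%, against 15.4% of tested genes and 8.71% of all genes with a promoter sequence). For Mrps11 this neighbour was another member, Mrpl46, a large subunit protein without a bacterial counterpart, whose start lay 42 bases away. For Mrps12 it was Sars2, which encodes the mitochondrial seryl-tRNA synthetase (147 bases), and for Mrpl43 it was Twnk, the helicase that unwinds mitochondrial DNA (116 bases).

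All values below are signal intensities on a linear scale as the authors computed them with GC-RMA. A probe set was tested when its mean over the 40 arrays was above 20, which held for 39.3% of the probe sets and for 66 members, 21 of the small and 45 of the large subunit. The array medians lay between 8.8 and 9.4. The mean intensity of the tested members ranged from 64.8 to 1425 in the small subunit (median 427) and from 23.2 to 3775 in the large subunit (median 434), and the median of all tested probe sets was 148. Since probes differ in how strongly they bind, these intensities are no order of abundance between genes. The 3 brightest members of the small subunit were Mrps16, which has a bacterial homolog, Mrps28 and Mrps34, which is found in mitochondria alone, and of the large subunit Mrpl42, found in mitochondria alone, Mrpl30 and Mrpl33, both with bacterial homologs. The dimmest tested ones were Mrps14 and Mrps35 in the small and Mrpl57 and Mrpl15 in the large subunit, of which Mrps35 and Mrpl57 have no bacterial homolog.

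The other 3 members lay under the filter. Mrpl41 had a mean of 5.045, below every array median, Mrps25 had 13.05 and Mrps5 had 19.2. Mrps5, the homolog of a bacterial small subunit protein, ranged from 13.0 to 22.3 (median 18.2) in the gastrocnemius of HFD mice, against 16.9 to 27.6 (median 20.95) in that of LFD mice. In the quadriceps it ranged from 13.2 to 22.6 (median 17.1) in HFD mice, against 16.3 to 28.3 (median 19.5) in LFD mice. The ranges overlapped in both muscles, and in a fit without the filter Mrps5 had a log2 fold change of HFD over LFD of -0.22 (SE 0.10, limma adjusted p = 0.770) in the gastrocnemius and -0.20 (SE 0.10, limma adjusted p = 0.934) in the quadriceps.

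The first question was whether the muscles differ in the expression of these genes. They differed little. In HFD mice 1 of 66 members differed between the gastrocnemius and the quadriceps at a Benjamini-Hochberg FDR under 0.05 (limma), where 6.62% of all tested probe sets did, and in LFD mice 1 of 66, where 5.22% did. It was Mrps28 in both diets, lower in the gastrocnemius, as were 3.3% of all tested in HFD and 2.53% in LFD mice, while no member and 3.32% and 2.69% of all tested were higher. None of the 66 met the rule of the study, a fold change over 1.3 with an FDR under 0.05, in either diet (3.46% of all tested in HFD mice and 2.52% in LFD mice). At an unadjusted p under 0.05 there were 5 members in HFD and 3 in LFD mice, 7.58% and 4.55% of them, against 18.7% and 19% of all tested.

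Mrps28, the small subunit protein related to the bacterial ribosomal protein S1, ranged from 1119.7 to 1334.0 (median 1264.75) in the gastrocnemius and from 1342.1 to 1585.6 (median 1419.65) in the quadriceps of HFD mice. The groups did not overlap, which was the case for 1% of all tested probe sets in this comparison. Every one of the 10 HFD mice had the lower value in its gastrocnemius. The mean was 1253 ± 73.5 for gastrocnemius and 1440 ± 87.7 for quadriceps (SD, n = 10 each), a log2 fold change of -0.20 (SE 0.04, 95% interval -0.29 to -0.11, limma adjusted p = 0.00762).

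In LFD mice Mrps28 ranged from 1193.5 to 1472.8 (median 1292.95) in the gastrocnemius and from 1332.8 to 1590.9 (median 1498.65) in the quadriceps. These groups overlapped (0.463% of all tested did not), and 9 of 10 mice had the lower value in the gastrocnemius. The exception was mouse 141, with 1472.8 for gastrocnemius and 1376.3 for quadriceps. The gastrocnemius mean was 1299 ± 89.5 and the quadriceps mean 1484 ± 85.8 (SD, n = 10 each), a log2 fold change of -0.19 (SE 0.05, 95% interval -0.29 to -0.10, limma adjusted p = 0.0160). In LFD mice the call ended without mouse 147, 154 or 156 (limma adjusted p = 0.0611, 0.0576 and 0.0539, log2 fold change -0.18, -0.17 and -0.18).

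The muscle difference of Mrps28 did not differ detectably between the diets (interaction -0.01 on the log2 scale, 95% interval -0.13 to 0.12, limma adjusted p = 0.9998). Averaged over both diets, the difference was -0.20 (SE 0.03, limma adjusted p = 6.26e-06), and 19 of 20 mice had the lower value in the gastrocnemius. In this average, which uses the arrays of both within-diet comparisons again, 18% of all tested probe sets passed the FDR, 9.83% as lower and 8.13% as higher in the gastrocnemius. Of the members 2 passed, both of the small subunit and both lower, Mrps28 and Mrps12, and none also had a fold change over 1.3 (3.75% of all tested). At an unadjusted p under 0.05 there were 6 members (9.09%, against 28% of all tested), and the 95% interval lay within 1.3-fold for all 66 (87.6% of all tested). With the mouse as a fixed block the count past the FDR was 4, adding Mrpl57 (-0.09, adjusted p = 0.0400) and Mrpl34 (-0.14, adjusted p = 0.0418), and with the mouse as a random block it was 3, adding Mrpl57 (adjusted p = 0.0432, limma throughout).

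Mrps12, the homolog of a bacterial protein of the decoding center, ranged from 384.1 to 481.0 (median 420) in the gastrocnemius and from 410.4 to 504.4 (median 473) in the quadriceps of HFD mice. In LFD mice it ranged from 380.4 to 486.3 (median 446) in the gastrocnemius and from 433.9 to 501.3 (median 466) in the quadriceps. The groups overlapped in both diets, and 16 of 20 mice had the lower value in the gastrocnemius. The log2 fold change was -0.13 (SE 0.05, adjusted p = 0.126) in HFD mice, -0.10 (SE 0.05, adjusted p = 0.341) in LFD mice and -0.11 (SE 0.03, 95% interval -0.18 to -0.04, adjusted p = 0.0156) over both diets by limma.

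Mrpl57, a large subunit protein without a bacterial homolog, was the dimmest tested member, with a mean close to the filter. It ranged from 18.6 to 23.3 (median 21.7) in the gastrocnemius and from 21.4 to 25.8 (median 23.15) in the quadriceps of HFD mice, and from 19.9 to 26.3 (median 24.0) in the gastrocnemius and from 21.6 to 26.5 (median 25.35) in the quadriceps of LFD mice. The groups overlapped in both diets, and 16 of 20 mice had the lower value in the gastrocnemius. Its log2 fold change over both diets was -0.09 (SE 0.03, limma adjusted p = 0.0839).

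**Figure D1:**
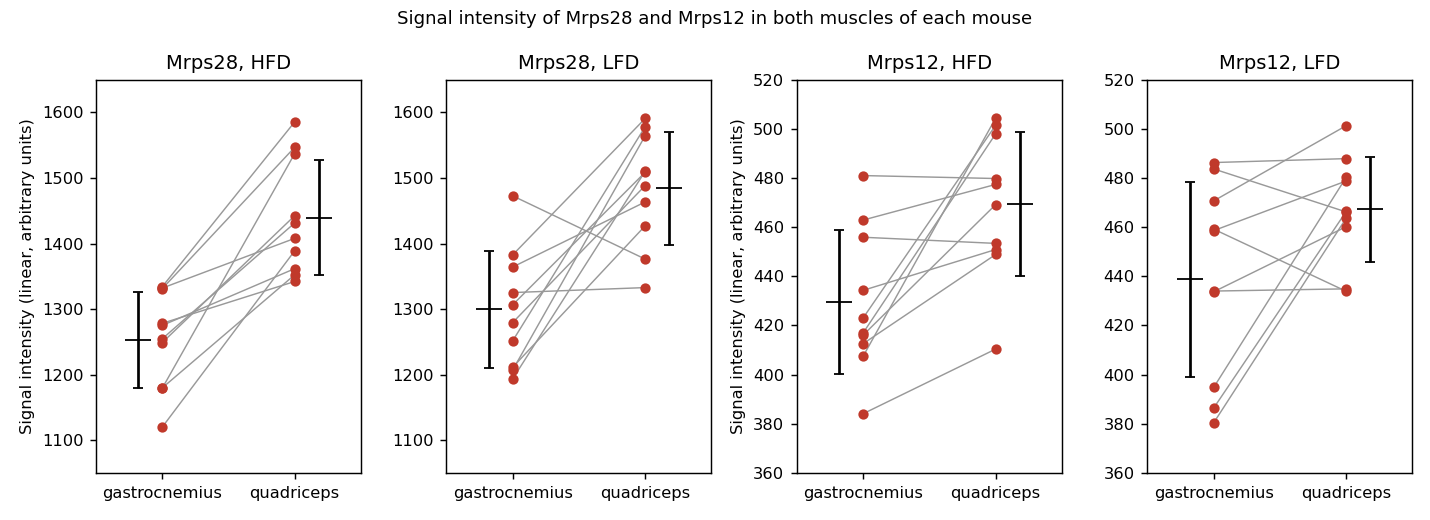
Signal intensity (linear, y axis cut above 0) of Mrps28 and Mrps12 in the gastrocnemius and the quadriceps of 10 HFD and 10 LFD mice; each line joins the muscles of 1 mouse and the black bars give the mean and SD. The Mrps28 lines rise to the quadriceps in 10 of 10 HFD and 9 of 10 LFD mice, and those of Mrps12 in 16 of 20 mice.

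With all mice kept and without a mouse block or array weights, the other 64 tested members did not pass in any muscle comparison. Over both diets, Mrpl57 passed without mouse 141 or 149 (limma adjusted p = 0.0493 and 0.0469). Mrpl34 passed there without mouse 144 (limma adjusted p = 0.0459). The 95% interval of the muscle difference lay within 1.3-fold in either direction for 65 of the 66 members in HFD mice (76.2% of all tested) and for 66 in LFD mice (78.4% of all tested). The exception was Mrpl14 in HFD mice, with -0.17 to 0.39. Point estimates ranged from -0.20 for Mrps28 to 0.11 for Mrpl14 in HFD mice and from -0.19 for Mrps28 to 0.11 for Mrps11 in LFD mice. Leaving out 1 mouse at a time, the estimate of Mrpl14 in HFD mice ranged from 0.022 (without mouse 151) to 0.19 (without mouse 145) and that of Mrps11 in LFD mice from 0.070 (without mouse 148) to 0.17 (without mouse 142). Mrpl34, a large subunit protein with a bacterial homolog that was named after its values were seen, had the lowest estimate of the large subunit over both diets, with -0.14 (SE 0.06, adjusted p = 0.0943).

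Most members had slightly lower values in the gastrocnemius, as had most of all tested probe sets. The members are not replicates of a muscle, and no test was made over them. The log2 fold change was below 0 for 46 of 66 members in HFD mice (69.7%, against 56.1% of all tested) and for 44 in LFD mice (66.7%, against 54.3%). In the average over both diets it was below 0 for 41 (62.1%, against 55.9%). The median was -0.024 in HFD and -0.018 in LFD mice, and that of all tested probe sets was -0.016 and -0.010. In both diets 34 members (51.5%, against 41.9% of all tested) were below 0 and 10 (15.2%, against 31.5%) above 0, and 22 changed direction between the diets. For the small subunit the median was -0.032 in HFD and -0.014 in LFD mice, and for the large subunit it was -0.022 and -0.018. Leaving out 1 mouse at a time, the small subunit median ranged from -0.048 to -0.015 in HFD and from -0.023 to -0.0006 in LFD mice, and the large subunit median from -0.040 to -0.006 in HFD and from -0.029 to -0.011 in LFD mice. These ranges of the subunits overlapped in both diets, but they come from the same arrays and are no test of a difference between the subunits. With array weights the small subunit median in LFD mice was above 0 (0.0018).

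**Figure D2:**
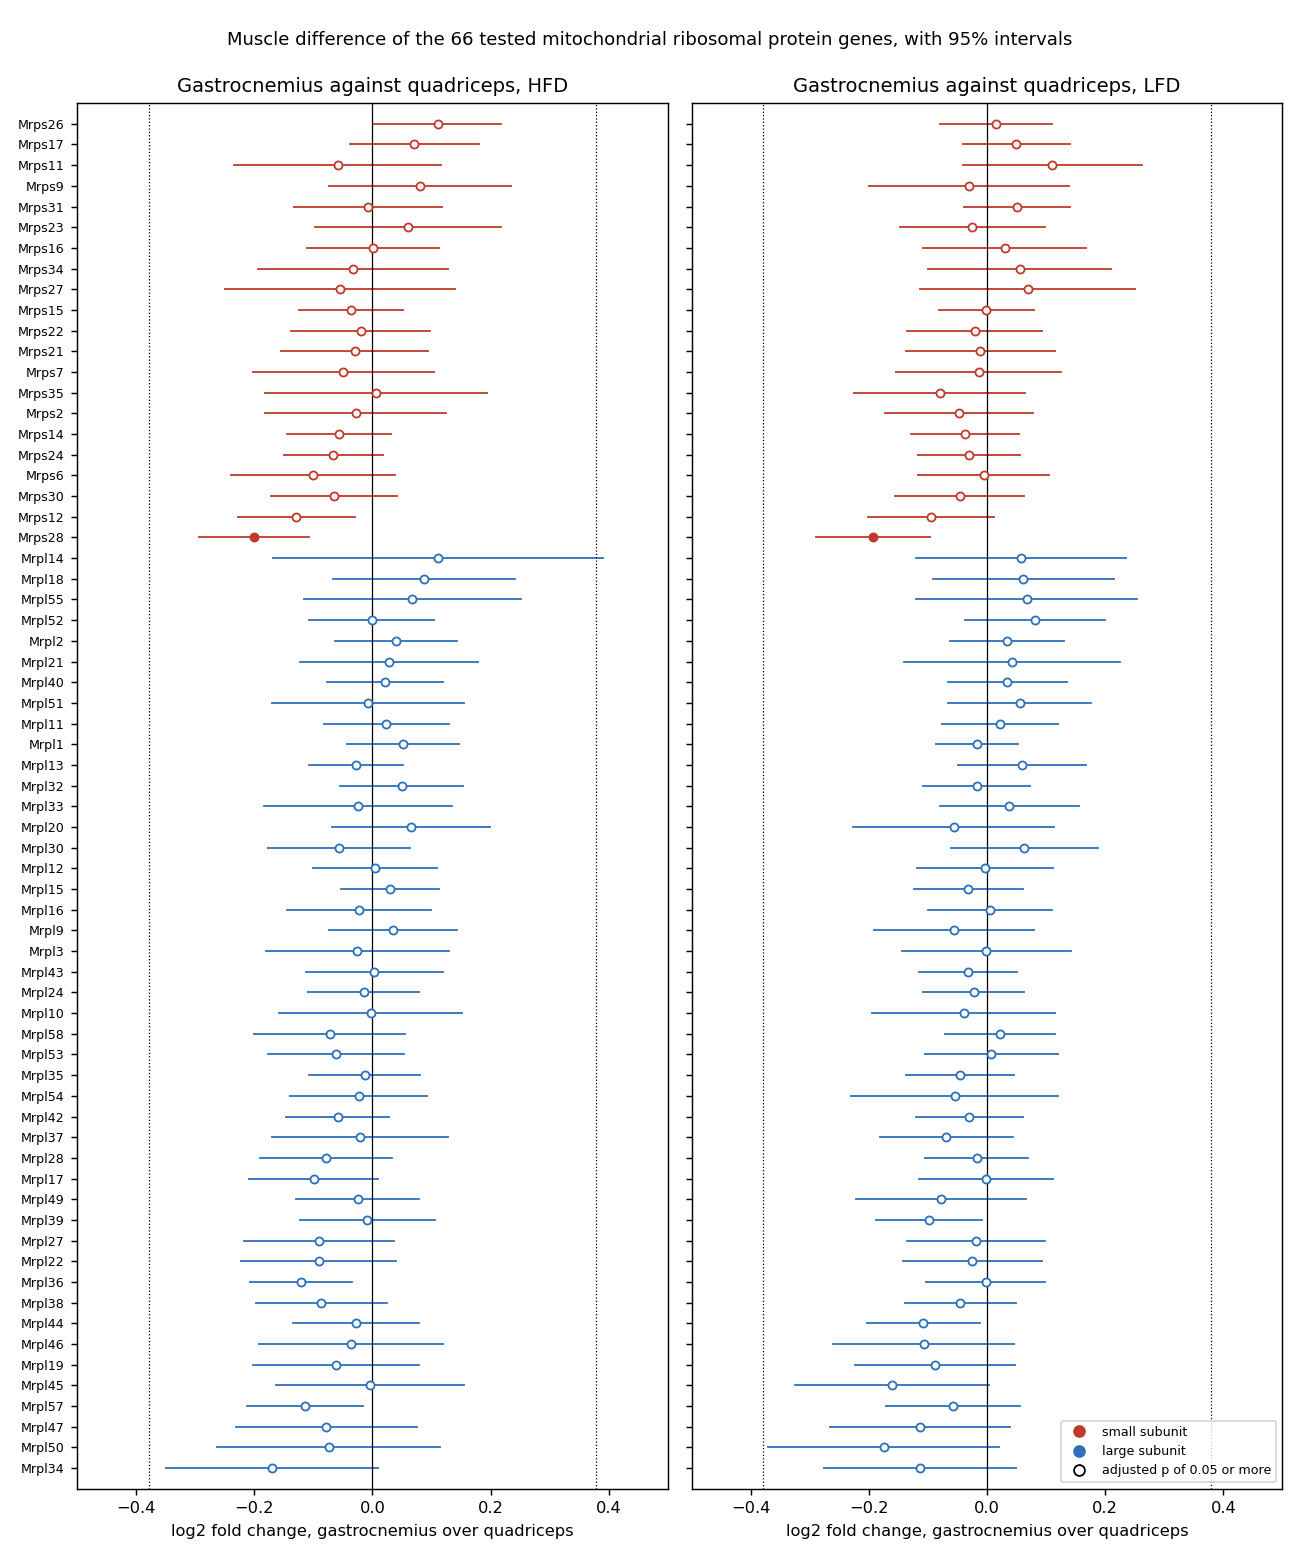
Log2 fold change of gastrocnemius over quadriceps (x axis) for each of the 66 tested members (rows, small subunit in red above the large subunit in blue) in HFD and LFD mice, with 95% intervals; filled points have a limma adjusted p under 0.05 and dotted lines mark a fold change of 1.3. Mrps28 is the filled point in both panels, and the interval of Mrpl14 in HFD mice crosses the line.

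Members of known function in the large subunit lay within this range. Mrpl10, Mrpl11 and Mrpl12 form the stalk that recruits translation factors, and they differed by -0.02, 0.02 and 0.00 on the log2 scale over both diets (SE 0.05, 0.03 and 0.04). Mrpl45, which anchors the ribosome at the inner membrane near the exit of the new protein, had -0.004 (SE 0.08) in HFD and -0.16 (SE 0.08) in LFD mice, with limma adjusted p = 0.989 and 0.278. Mrpl58, a hydrolase that frees stalled proteins and is built into the large subunit, had -0.03 (SE 0.04) over both diets. Mrpl10, Mrpl11, Mrpl12 and Mrpl58 were chosen for their role with the values known.

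Mrps11 and Mrpl46 had a log2 fold change of -0.06 (SE 0.08) and -0.04 (SE 0.07) in HFD mice and of 0.11 (SE 0.07) and -0.11 (SE 0.07) in LFD mice. Mrps11 ranged from 109.0 to 155.9 (median 146) in the gastrocnemius and from 121.7 to 187.2 (median 141) in the quadriceps of HFD mice, and from 111.5 to 179.1 (median 154) in the gastrocnemius and from 124.5 to 159.6 (median 138) in the quadriceps of LFD mice. All of these ranges overlapped, and neither gene passed in any comparison. Sars2 differed by 0.21 over both diets (limma adjusted p = 0.353), where Mrps12 fell by 0.11.

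Other chosen lists of genes for mitochondrial proteins, which do not cover all such genes, were examined as well. Of all tested probe sets, 6.62% passed the FDR in HFD mice, 5.22% in LFD mice and 18% over both diets. The lists are too short for their counts to be set apart from these shares. Of 66 tested nuclear genes for respiratory chain and ATP synthase subunits, 1 passed in HFD mice (median -0.008) and none in LFD mice (median -0.001). It was Cox7a1, the muscle isoform of a cytochrome c oxidase subunit, which was lower in the gastrocnemius (-0.19, SE 0.05, limma adjusted p = 0.0135). Over both diets Ndufb5, Ndufs4 and Ndufv1 of complex I were higher and Cox7a1 and Ndufa1 lower. Of the 6 mitochondrial ribosomal proteins with other symbols (Dap3, Mrps18a, Mrps18c, Chchd1, Aurkaip1 and Gadd45gip1) none passed, and of 11 mitochondrial aminoacyl-tRNA synthetases none passed. Among 8 translation factors, Gfm1, an elongation factor, was lower in the gastrocnemius of LFD mice (-0.16, SE 0.05, adjusted p = 0.0394). Among 17 assembly and rRNA modification factors, Nsun4, a methyltransferase of the small subunit RNA, was lower in LFD mice (-0.23, SE 0.06, adjusted p = 0.0404). Among 11 genes of mitochondrial DNA expression, Polg, the mitochondrial DNA polymerase, was lower in LFD mice (-0.34, SE 0.09, adjusted p = 0.0370, limma throughout). These 3 genes did not pass in HFD mice and passed as lower over both diets.

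Most of the tested cytosolic ribosomal proteins lay on the other side of 0. A probe set was found for 20 of these proteins, and the others of the cytosolic ribosome were not measured here. Of 14 tested, 13 had a log2 fold change above 0 in HFD mice (median 0.08) and all 14 in LFD mice (median 0.10). Rps14 passed in both diets (0.18 in HFD mice, adjusted p = 0.0393, and 0.16 in LFD mice, adjusted p = 0.0437, limma), and 8 passed as higher in the gastrocnemius over both diets.

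The muscles also differed in the RNA of markers of cell and fiber types, and fewer cells of a type and less RNA per cell cannot be told apart in whole muscle. All 6 markers of skeletal muscle fibers were present in every group, with summed intensities from 115164 to 126464 in HFD and from 111052 to 125561 in LFD mice. In either diet the slow fiber markers (6 of 6) passed as higher in the gastrocnemius, with sums from 3814 to 7420 in the gastrocnemius and from 249.5 to 2774 in the quadriceps of HFD mice, and from 3498 to 8686 in the gastrocnemius and from 262.7 to 4505 in the quadriceps of LFD mice. Of the 5 tested neutrophil markers 3 passed as lower in the gastrocnemius in HFD and none in LFD mice. In HFD mice the sums of all 6 with a probe set ran from 30.3 to 37.8 in the gastrocnemius and from 29.1 to 12453 in the quadriceps (median 1243.1). In LFD mice they ran from 29.2 to 37.5 in the gastrocnemius and from 28.3 to 2534 in the quadriceps (median 35.05). The gastrocnemius sums were thus low on every array, and these markers met the intensity filter through a part of the quadriceps arrays. Their lower values in the gastrocnemius were therefore set by the filter. Of the 5 adipocyte markers 1 passed as lower in HFD and 3 in LFD mice, with sums from 5693 to 11285 in the gastrocnemius and from 6964 to 11590 in the quadriceps of HFD mice, and from 5693 to 7506 in the gastrocnemius and from 6550 to 11170 in the quadriceps of LFD mice. Of 4 tendon markers 1 passed as higher and of 4 fibroblast markers 1 as lower in the gastrocnemius in each diet, with 2 and 1 over both diets. The 1 red cell marker passed as lower over both diets alone (-0.78 on the log2 scale). Its gastrocnemius median, 15.05 in HFD and 14.3 in LFD mice, lay under the filter, a limit like that of the neutrophil markers. Over both diets all 5 adipocyte and all 5 tested neutrophil markers passed as lower, and 1 of the 6 skeletal muscle fiber markers passed as higher. Of the 3 endothelial and 3 macrophage markers tested none passed. The 3 tested Schwann cell markers passed as higher in the gastrocnemius in both diets. In HFD mice the sums of all 4 with a probe set ran from 569.6 to 1450.8 in the gastrocnemius and from 425.4 to 722.1 in the quadriceps. In LFD mice they ran from 624.9 to 1375.8 in the gastrocnemius and from 457.6 to 693.3 in the quadriceps. The part of these cells and fibers in the differences of Mrps28 and Mrps12 was not tested. Leaving out 1 mouse at a time is no test of that part. Without any 1 mouse, the log2 fold change of Mrps28 stayed between -0.21 and -0.18 in HFD mice and between -0.22 and -0.17 in LFD mice.

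The next question was whether the diet changes these genes within a muscle. No member passed an FDR of 0.05 in the gastrocnemius, where 0.679% of all tested probe sets did, or in the quadriceps, where 0.185% did (limma), and none met the rule of the study (0.216% and 0.0617% of all tested). No member had groups without overlap (0.0926% of all tested in the gastrocnemius and 0.0309% in the quadriceps). At an unadjusted p under 0.05 there were 8 members in the gastrocnemius (12.1%, against 8.97% of all tested) and 2 in the quadriceps (3.03%, against 5.68%). The 8 of the gastrocnemius, Mrpl13, Mrpl17, Mrpl33, Mrpl36, Mrpl42, Mrpl57, Mrps15 and Mrps24, all lay below 0, and none passed the FDR. Of all tested probe sets, at any p, 57.2% lay below 0 in this comparison. The 95% interval of the diet difference lay within 1.3-fold for 65 members in the gastrocnemius (83.6% of all tested) and for 66 in the quadriceps (85.2%). The exception was again Mrpl14.

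Mrpl36, a small zinc-binding protein of the large subunit that was named after its values were seen, had the lowest p in the gastrocnemius. It ranged from 161.4 to 186.8 (median 178) in HFD mice, against 175.9 to 218.2 (median 192) in LFD mice. The ranges overlapped, and the log2 fold change of -0.13 (SE 0.04) had a limma adjusted p of 0.216. In the quadriceps Mrpl36 ranged from 176.0 to 206.3 (median 192) in HFD mice, against 164.3 to 214.4 (median 196) in LFD mice, a log2 fold change of -0.01 (SE 0.04).

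Mrpl42, the brightest member, averaged 3582 ± 204 in HFD and 3857 ± 272 in LFD mice in the gastrocnemius, a log2 fold change of -0.11 (SE 0.04, limma adjusted p = 0.308). Its quadriceps values were 3728 ± 182 in HFD and 3932 ± 164 in LFD mice (SD, n = 10 each), a log2 fold change of -0.08 (SE 0.04). Mrps27, a pentatricopeptide repeat protein of the small subunit, had the lowest estimate of all members in the gastrocnemius. It ranged from 72.1 to 93.1 (median 82.7) in HFD mice, against 76.6 to 120.7 (median 95.3) in LFD mice, with a log2 fold change of -0.18 (SE 0.09, limma adjusted p = 0.568). The highest estimate belonged to Mrpl14, with 0.18 (SE 0.11, limma adjusted p = 0.736). In the quadriceps the lowest was Mrpl20, with -0.11 (SE 0.07), and the highest Mrps6, with 0.13 (SE 0.06, limma adjusted p = 0.866). Mrps6, the homolog of a bacterial small subunit protein, ranged there from 281.1 to 386.3 (median 317) in HFD mice, against 243.7 to 341.0 (median 294) in LFD mice. These ranges overlapped as well.

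As between the muscles, most members lay slightly below 0. In the gastrocnemius the log2 fold change of HFD over LFD was below 0 for 48 of 66 members (72.7%, against 57.2% of all tested), and in the quadriceps for 54 (81.8%, against 55.5%). In both muscles 40 members (60.6%, against 37.6% of all tested) were below 0 and 4 (6.06%, against 24.8%) above 0, where both comparisons use the muscles of the same mice. The median was -0.032 in each muscle, and that of all tested probe sets was -0.016 and -0.011. The small subunit had a median of -0.048 for gastrocnemius and -0.043 for quadriceps, and the large subunit -0.019 for gastrocnemius and -0.032 for quadriceps. Without 1 mouse at a time, the small subunit median ranged from -0.059 to -0.034 for gastrocnemius and from -0.044 to -0.020 for quadriceps, and the large subunit median from -0.045 to -0.013 for gastrocnemius and from -0.049 to -0.024 for quadriceps. These ranges of the subunits overlapped in both muscles, which again is no test of a difference between the subunits. With each array centred on its median, the subunit medians were -0.039 and -0.034 for the small and -0.010 and -0.023 for the large subunit. The members are not replicates of the diet, and no test was made over them.

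**Figure D3:**
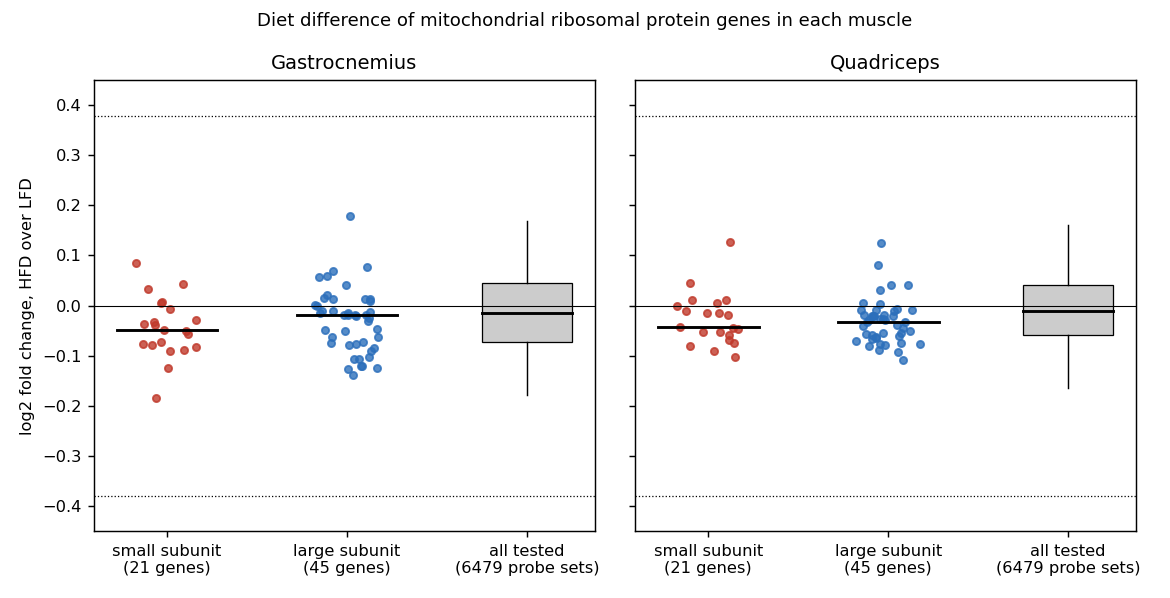
Log2 fold change of HFD over LFD (y axis) in the gastrocnemius and the quadriceps for the members of the small and large subunit (1 point per gene, bar at the median), beside all tested probe sets (box for the middle 50%, whiskers from the 5th to the 95th percentile); dotted lines mark a fold change of 1.3. Most points lie below 0 and all lie between the dotted lines.

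Neither the 6 proteins of the mitochondrial ribosome with other symbols nor the other lists had a gene that passed for the diet. The median in the gastrocnemius was -0.089 for the 6 proteins, -0.006 for the respiratory chain and ATP synthase subunits, -0.024 for the aminoacyl-tRNA synthetases, -0.028 for the translation factors and -0.053 for the assembly factors. In the quadriceps these medians were -0.021, -0.002, -0.061, -0.109 and -0.016. The 14 cytosolic ribosomal proteins all lay below 0 in both muscles, with medians of -0.051 and -0.049.

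No member passed for an interaction of muscle and diet, and none of all tested probe sets did (0%, limma), with 0 members and 118 probe sets (1.82%) at an unadjusted p under 0.05. It was below 0 for 34 of 66 members (51.5%, against 52.9% of all tested). The interaction ranged from -0.17 for Mrps11 (SE 0.11) to 0.16 for Mrpl45 (SE 0.11). For 62 of the 66 members its 95% interval lay within 1.3-fold (67.2% of all tested), and Mrpl14, Mrpl45, Mrps11 and Mrps27 were the exceptions. The median of the members was -0.011, with -0.019 for the small and 0.007 for the large subunit. Without 1 mouse at a time, the small subunit median ranged from -0.034 to -0.0099 and the large subunit median from -0.0097 to 0.023, below 0 without mouse 142, 144, 146, 150, 151, 154, 155 or 156.

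The level of each subunit on each array was described by the median, over its tested members, of the log2 intensity relative to the mean of the gene over 40 arrays. The small subunit level had a mean of -0.027 ± 0.068 for gastrocnemius and 0.005 ± 0.039 for quadriceps of HFD mice, and of 0.017 ± 0.042 for gastrocnemius and 0.024 ± 0.043 for quadriceps of LFD mice (SD, n = 10 each). The large subunit level was -0.024 ± 0.060 for gastrocnemius and 0.0003 ± 0.057 for quadriceps of HFD mice, and 0.004 ± 0.048 for gastrocnemius and 0.024 ± 0.042 for quadriceps of LFD mice. The 4 groups overlapped for both subunits. The lowest level of all members, -0.15, was that of the gastrocnemius of HFD mouse 158, and the highest, 0.12, that of the quadriceps of HFD mouse 145. The small subunit level minus the large subunit level was -0.003 ± 0.058 for gastrocnemius and 0.004 ± 0.044 for quadriceps of HFD mice, and 0.013 ± 0.039 for gastrocnemius and -0.001 ± 0.034 for quadriceps of LFD mice.

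**Figure D4:**
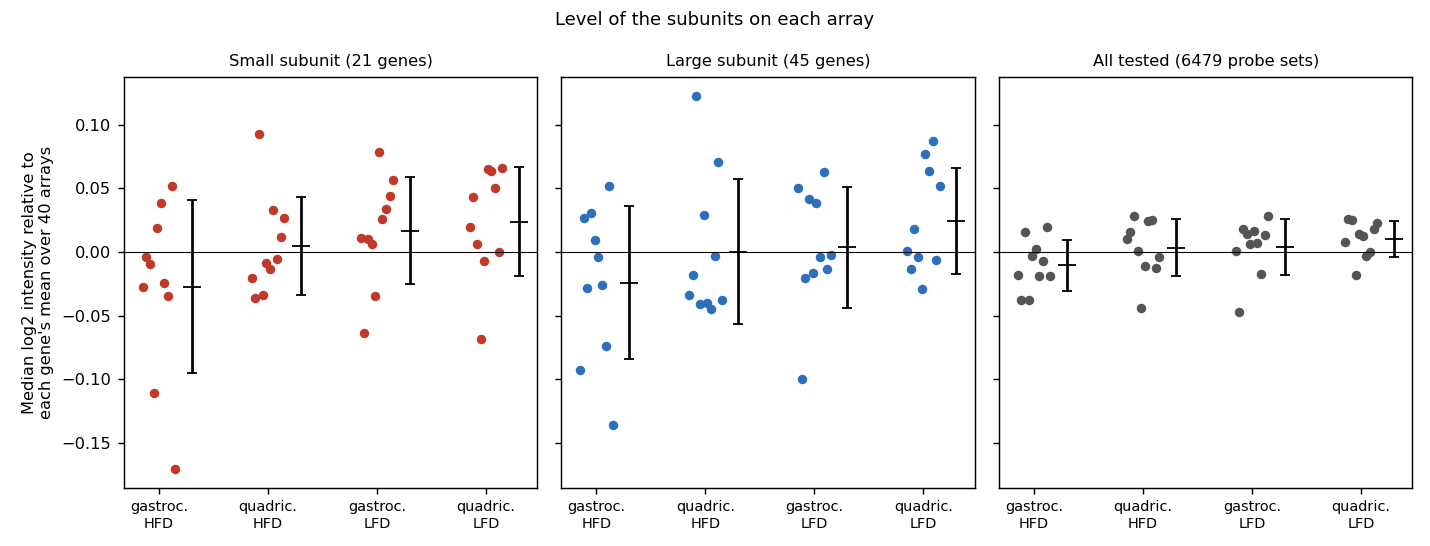
Level of the small and the large subunit and of all tested probe sets on each of the 40 arrays (y axis, median log2 intensity relative to the mean of each gene over the arrays), by muscle and diet; bars give the mean and SD of 10 arrays. The 4 groups overlap for both subunits.

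The spread of the members between mice was narrower than that of all tested probe sets. The SD of log2 intensity within the groups had a median of 0.122 over the 66 members (0.130 in the small and 0.116 in the large subunit), against 0.188 over all tested probe sets, and 61 members lay below 0.188. The median SD was lower still over the respiratory chain and ATP synthase subunits (0.084) and over the cytosolic ribosomal proteins (0.098). Part of the narrow spread of the members went with intensity. Of members with a mean intensity from 20 to 100, 8 of 8 lay below the median of the tested probe sets in that range (0.233), from 100 to 1000 it was 38 of 49 (0.167), and above 1000 it was 4 of 9 (0.111). The narrowest were Mrpl1, which forms the stalk at the exit site for transfer RNA (SD 0.071), Mrps15 (0.073) and Mrps24 (0.074), both homologs of bacterial small subunit proteins. Mrpl1 ranged from 50.7 to 63.9 (median 56.8) in the gastrocnemius and from 49.9 to 59.1 (median 54.7) in the quadriceps of HFD mice, and from 51.9 to 59.1 (median 55.9) in the gastrocnemius and from 54.0 to 60.0 (median 56.7) in the quadriceps of LFD mice. These ranges lay within one another to a large part, and no muscle or diet stood apart.

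The widest were Mrpl14, the partner of an assembly factor on the large subunit (SD 0.264), Mrpl50, a large subunit protein without a bacterial counterpart (0.213), and Mrps27 (0.209). Mrpl14 ranged from 215.3 to 344.8 (median 292) in the gastrocnemius and from 177.7 to 402.5 (median 260) in the quadriceps of HFD mice, and from 189.7 to 314.3 (median 257) in the gastrocnemius and from 194.2 to 277.6 (median 252) in the quadriceps of LFD mice. Its quadriceps values in HFD mice thus spanned those of all other groups. Mrpl50 ranged from 162.0 to 238.5 (median 187) in the gastrocnemius and from 162.6 to 256.1 (median 202) in the quadriceps of HFD mice, and from 153.2 to 248.7 (median 189) in the gastrocnemius and from 176.5 to 252.9 (median 217) in the quadriceps of LFD mice. Its log2 fold change was -0.07 (SE 0.09) in HFD and -0.18 (SE 0.09) in LFD mice, with limma adjusted p = 0.767 and 0.341.

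**Figure D5:**
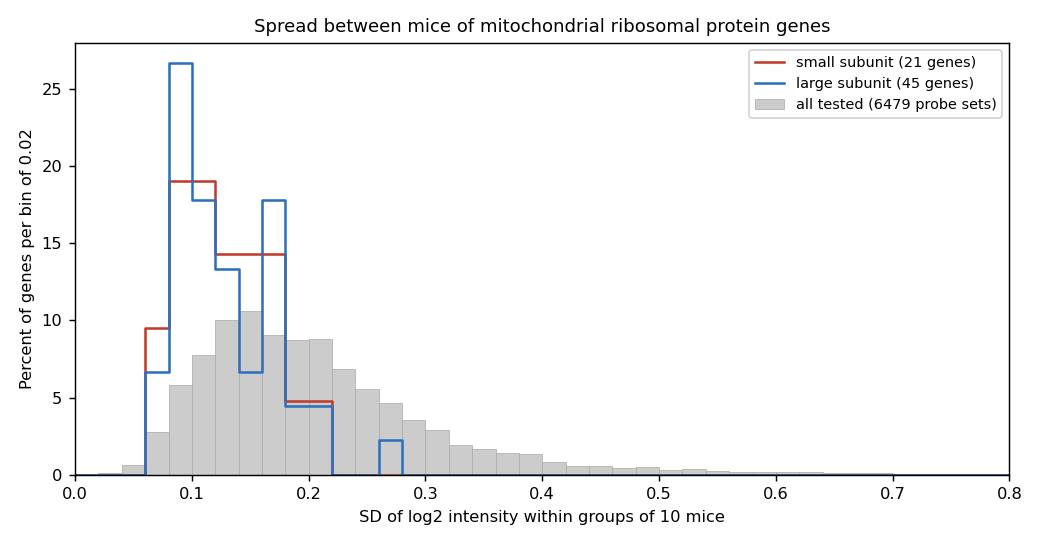
Distribution of the SD of log2 intensity within the groups of 10 mice (x axis, bins of 0.02; y axis, percent of genes) for the members of each subunit and for all tested probe sets. The members lie between 0.071 and 0.264, mostly to the left of the median of all tested probe sets of 0.188, and 49 tested probe sets above 0.8 are not drawn.

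After the group means were taken off, the 2145 pairs of members had a median correlation of 0.143 over the 40 arrays, and the middle 80% of the pairs lay between -0.28 and 0.50. Pairs of a small and a large subunit member had a median of 0.130, pairs within the small subunit 0.121 and pairs within the large subunit 0.160. The median was 0.016 over all tested probe sets, 0.272 over the respiratory chain and ATP synthase subunits and 0.225 over the cytosolic ribosomal proteins. These points share their arrays and their normalization, and the values are a description.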

How the data were processed

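The deposited table holds signal intensities on a linear scale, which the authors made by regrouping the probes of the array into 1 probe set per Entrez gene, quantile normalization and GC-RMA, in a version not given in the sources used here. Probes of such sets may also bind pseudogenes, of which Mrpl27-ps and Mrpl23-ps1 have probe sets of their own. Of 16539 probe sets, 64 controls were left out. Symbols were taken from RefSeq (GRCm38.p6) through the Entrez number for 16229 probe sets and from the platform table alone for 28, and 218 had none. Log2 intensities were fitted with limma 3.58.1 (R 4.3.3), on the arrays of 1 diet for each muscle comparison and on all 40 arrays for the diet, interaction and mean comparisons, with Benjamini-Hochberg adjustment over all tested probe sets. Unless a mouse block is named, the fits had no term for the mouse, so the muscles of 1 mouse were treated as independent arrays. Those p-values rest on the spread between arrays within the groups and leave the pairing out. Precision rests on 10 arrays a group. The script was tested on simulated data without a pairing of the muscles, with changed genes drawn from all tested probe sets. Of 1.2-fold changes, 38% to 48% passed the FDR in the within-diet muscle and the diet comparisons. For the interaction it was 18%, and for the average over both diets 74%. Promoters, figures and counts were handled in Python 3.11.15.

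The members and gene lists were chosen with earlier results of these data known. Members were named that passed the FDR, that had the highest or lowest log2 fold change of a comparison, that were the 3 brightest or 2 dimmest of a subunit, or that had one of the 3 widest or narrowest SDs, and any other named member was chosen after its values were seen. The mouse number pairs the muscles of an animal. The deviations of the muscles of 1 mouse from their group means had a median correlation of 0.388 in LFD mice (over 0.1 in 9 of 10 pairs) and -0.069 in HFD mice (over 0.1 in 3 of 10). The alternatives were other filters on low intensity, repeated quantile normalization, median centring, another variance model, array weights, the mouse as a block, 1 fit over all arrays and leaving out each mouse.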

Additional observations from a re-analysis of the deposited data

Results flagged for a closer look

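Among the 21 named members, 84 groups of 10 arrays were examined for a single array far from the others, and 4 had one, where chance gives about 1 in 20 groups. All 4 were groups of LFD mice. Mrps16 had its lowest gastrocnemius value, 1113.3, in mouse 142, where the next was 1407. Mrps24 had its highest gastrocnemius value, 1013.2, in mouse 154, where the next was 898.6. Mrps27 had its highest gastrocnemius value, 120.7, in mouse 160, where the next was 99. Mrpl20 had its highest quadriceps value, 1222.4, in mouse 156, where the next was 1058.8.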

How the results depend on the processing

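The count of members past the FDR for the muscles in LFD mice was 1, and leaving out 1 mouse at a time it ranged from 0 to 1, with 0 without mouse 147, 154 or 156. Over both diets it was 2, with a range of 2 to 3 without 1 mouse, 4 with array weights, which added Mrps26 (0.08, limma adjusted p = 0.0417) and Mrps17 (0.08, limma adjusted p = 0.0483), both higher in the gastrocnemius, and 4 with the mouse as a fixed replicate block (3 as a random block). The cause was not tested. The block changed no other call of a member. In HFD mice the count was 1 without any 1 mouse, and for the diets and the interaction it was 0 under every setting run. The adjusted p of Mrps28 ranged from 0.00158 to 0.0284 in HFD and from 0.000919 to 0.0611 in LFD mice, and that of Mrps12 over both diets from 0.00625 to 0.0400 (limma). Over all tested probe sets, the LFD muscle count of 338 was 759 with array weights, 917 with the random and 694 with the fixed block, and the gastrocnemius diet count of 44 was 172 with array weights.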
